A study of Arabidopsis thaliana with 26 samples.

Results

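The transcripts of 10 nuclear genes of Arabidopsis thaliana that keep the genomes of mitochondria and plastids stable were followed by RNA sequencing in an msh1 memory line and in wild type, each with and without 5-azacytidine. The genes were MSH1 (AT3G24320), WHY1 (AT1G14410), WHY2 (AT1G71260), WHY3 (AT2G02740), RECA1 (AT1G79050), RECA2 (AT2G19490), RECA3 (AT3G10140), OSB1 (AT1G47720), POLIA (AT1G50840) and POLIB (AT3G20540). They were chosen by identifier for their known roles and not by a cut on measured values, though earlier results of these data were known. The files hold 33977 gene identifiers, of which 22031 passed the filter on low counts, and all 10 genes were among those tested.

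Mitochondria and plastids carry small genomes of their own, and the proteins that copy and repair them are encoded in the nucleus. Short and intermediate repeats in these genomes can recombine with each other, which rearranges the genome, and a group of nuclear-encoded proteins holds such events down. MSH1, a relative of the bacterial mismatch repair protein MutS, works in both organelles and is best known for suppressing recombination between repeats. The Whirly proteins WHY1 and WHY3 in plastids and WHY2 in mitochondria bind single-stranded DNA, the RECA proteins are recombinases of bacterial descent, OSB1 is a mitochondrial single-strand binding protein, and POLIA and POLIB are the DNA polymerases of both organelles.

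All plants were of the Columbia-0 background, were grown on agar medium for 10 days and were collected whole, with the root. The 4 groups were the msh1 memory line on 100 µM 5-azacytidine (2 biological replicates), the msh1 memory line on 0 µM (2), wild type on 100 µM (3) and wild type on 0 µM (3). 5-azacytidine is a cytidine analogue that blocks the maintenance of cytosine methylation. As background, an msh1 memory line is the progeny of plants in which MSH1 had been suppressed and keeps an altered growth type after the suppression has ended. How many plants were pooled in a replicate, and how many independent lines the memory line stands for, is not given in the sources used here. Each biological replicate was sequenced as 2 or 3 technical libraries of the same RNA, 26 in all, whose counts were summed. The labels do not say that the replicates were grown separately, and the p-values cover no more than the spread seen among them, which may be technical.

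The replicates held 11412839 to 13544859 gene counts. Wild-type replicate 3 stood apart from the other untreated wild-type replicates. In a principal component analysis of log2 CPM (counts of a gene per 1e+06 gene counts), the leading component took 35.2% of the variance, and wild-type replicate 3 lay there at -14.3, against -41.1 and -38.5 for replicates 1 and 2. Treated plants of both genotypes lay at 20.7 to 25.5 there, and the untreated memory line at -0.471 and -16.8. This replicate had the highest level of the 3 untreated wild-type replicates for 9 of the 10 genes, all but OSB1, while the same held for 36.9% of all tested genes. Calls of the 10 genes that changed without it are given both ways. For any gene that this replicate tops, leaving it out lowers the untreated wild-type mean and so raises the fitted change over it by construction. Counts of calls without it are therefore no separate support. The shares of all tested genes beside them are no like background, as fewer of those genes had it highest. Multi-mapped reads made up 25.7% in memory-line replicate 2 and 6.49% to 13.6% elsewhere. Leaf markers and root markers were present in every replicate, and the flower markers AP1, AP3 and AG had at most 6 counts in any replicate. The 3 leaf markers differed widely within the memory-line groups. They summed to 10500 and 17980 CPM in the memory line and to 20000 and 9693 in the treated memory line. In wild type they summed to 14890 to 21520 CPM, and in treated wild type to 16730 to 17600. In whole plants, fewer cells of a type and less RNA per cell cannot be told apart.

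To show the genes the results turn on, the 250 bases before the annotated start are given for MSH1, which names the memory line, and for WHY2 and WHY3, the members called in at least 1 comparison. They were read from the RefSeq assembly TAIR10.1, 5′ to 3′ on the strand of the gene. They lie at chr3:8829729-8829978 on the minus strand for MSH1, at chr1:26863455-26863704 on the minus strand for WHY2 and at chr2:769084-769333 on the plus strand for WHY3. Capitals mark matches to the site II motif TGGGCC on either strand, a motif known from promoters of genes active in dividing cells.
MSH1: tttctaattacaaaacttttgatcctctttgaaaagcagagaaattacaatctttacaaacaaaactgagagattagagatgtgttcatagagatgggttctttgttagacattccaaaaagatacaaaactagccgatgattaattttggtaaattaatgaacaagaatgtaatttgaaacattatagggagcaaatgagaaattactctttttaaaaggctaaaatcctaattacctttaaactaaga
WHY2: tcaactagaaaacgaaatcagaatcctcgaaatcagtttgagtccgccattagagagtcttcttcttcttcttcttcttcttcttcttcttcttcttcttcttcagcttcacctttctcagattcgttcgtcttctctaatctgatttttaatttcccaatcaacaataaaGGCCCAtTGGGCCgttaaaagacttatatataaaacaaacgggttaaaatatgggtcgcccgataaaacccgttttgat
WHY3: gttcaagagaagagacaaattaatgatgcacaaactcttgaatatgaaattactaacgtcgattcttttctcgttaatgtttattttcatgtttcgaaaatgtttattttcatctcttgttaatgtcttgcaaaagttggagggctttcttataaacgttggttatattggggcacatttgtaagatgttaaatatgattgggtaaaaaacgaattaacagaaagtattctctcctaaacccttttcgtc

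WHY2 held 2 matches, 79 and 72 bases before the start, and MSH1 and WHY3 held none. Of the 10 genes, WHY2 and OSB1 had the site II motif in this window, and 13.7% of 27443 upstream regions of the same length had it. The E2F-type motifs TTTCCCGC and TTTGGCGC, held by 0.619% and 0.361% of those regions, and the telo box AAACCCTA, held by 4.49%, were in none of the 10 windows on either strand. These are matches of letters only.

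Within the families the sequences are close enough to ask whether reads could be credited to the wrong copy. The longest run of identical exon bases between WHY1 (chr1:4929884-4929912) and WHY3 (chr2:770436-770464) was 29 bases. Between POLIA and POLIB it was 41 bases, across an exon junction in each gene, so that it spans chr1:18842581-18842904 and chr3:7171722-7171986. Both are shown on the coding strand.
WHY1 and WHY3: tgtgaattcttccatgatccattcaaggg
POLIA and POLIB: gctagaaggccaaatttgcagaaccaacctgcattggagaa

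Reads were 100 bases long, and no 100-base window inside an exon of any of the 10 genes occurred a second time in the genome. The library kit does not mark the strand. Exons of genes on the opposite strand overlap 18.2% of the exon bases of RECA3, 15.6% of RECA1, 10.1% of WHY2, 7.7% of WHY3, 1.7% of RECA2 and 0% of the other 5, and reads from such overlaps cannot be told apart.

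Azacytidine was first compared with none in wild type. WHY3, which encodes a plastid single-strand binding protein, rose 1.48-fold and was the member called among the 10. In this fit (edgeR quasi-likelihood test over all 22031 genes, Benjamini-Hochberg adjusted p under 0.05) 6.39% of all tested genes were called in either direction and 3.02% upward. All 10 genes had a fitted change above 0, as had 50.2% of all tested genes, with a median log2 fold change of 0.37 against 0.00 over all genes. At an unadjusted p under 0.05, 7 of the 10 were higher in treated wild type, against 11.7% of all genes: MSH1, WHY1, WHY3, RECA1, RECA2, POLIA and POLIB. In 6 of them, those 7 without MSH1, every treated replicate lay above every untreated one, as in 15.2% of all genes. With wild-type replicate 3 left out, 7 of the 10 were called, the same 7 genes, while 11.4% of all tested genes were. That replicate was the highest untreated one for 9 of the 10, so a rise of their fitted changes was built into this step.

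The same was then asked of the memory line. In the edgeR test 0 of the 10 genes were called, where 0.74% of all genes were. All 10 fitted changes were again above 0, against 52% of all genes, with a median of 0.24 against 0.01. At an unadjusted p under 0.05, 2 were higher in the treated memory line, WHY1 and WHY3, against 4.19% of all genes. DESeq2 called 0, and limma voom on the 26 libraries called WHY3. In 7 genes the 2 treated replicates lay above both untreated ones, as in 19.9% of all genes.

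The difference between both responses was tested as an interaction, the response of the memory line minus that of wild type. In edgeR 0 of the 10 genes were called, 0 passed an unadjusted p of 0.05, and DESeq2 called 0. Of all genes, 0.0182% were called and 8.58% passed an unadjusted p of 0.05. The 10 fitted differences, 2 of them above 0 where 51.4% of all genes were, ran from -0.38 for POLIA to 0.04 for OSB1. The interval for POLIA, -0.76 to 0.01, shows how wide a difference these replicates leave undetected in that gene. The SD of log2 CPM between replicates of a group was 0.109 for POLIA, the smallest of the 10, and 0.325 for MSH1, the largest. In MSH1 a wider difference could go undetected.

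The untreated memory line was then set against untreated wild type. In edgeR 0 of the 10 genes were called, against 1.17% of all genes, and DESeq2 called 0. All 10 fitted changes were above 0, against 49.9% of all genes, with a median of 0.32 against 0.00. At an unadjusted p under 0.05, 5 were higher in the memory line, WHY1, WHY2, WHY3, RECA3 and POLIB, against 7.78% of all genes. In 5 genes, WHY1, WHY2, WHY3, RECA1 and RECA3, both memory-line replicates lay above every wild-type one, as in 14.4% of all genes. In the fit without wild-type replicate 3, WHY3 (log2 fold change 0.57, edgeR adjusted p = 0.0433) and POLIB (0.61, adjusted p = 0.0427) were called, 2 of the 10, where 4.06% of all tested genes were. This comparison and the wild-type response share the 3 untreated wild-type replicates, so both move with them.

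On azacytidine, in edgeR 0 of the 10 genes were called between the memory line and wild type, against 0.0454% of all genes, and DESeq2 called 0. At an unadjusted p under 0.05, WHY1, WHY2 and RECA3 were higher in the treated memory line, 3 of 10, against 6.32% of all genes. Their log2 fold changes were 0.33 (SE 0.13), 0.41 (SE 0.14) and 0.41 (SE 0.15). In 5 genes, WHY1, WHY2, WHY3, RECA3 and OSB1, the treated memory line lay above treated wild type without overlap, as in 17.9% of all genes, and in POLIA it lay below, as in 15.5%. The fitted change was above 0 for 8 of the 10 genes and below it for MSH1 and POLIA, where 51.3% of all genes were above 0, and the median was 0.20 against 0.01.

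Averaged over both genotypes, azacytidine raised WHY3, called alone among the 10, where 4.5% of all genes were called. At an unadjusted p under 0.05, 7 of the 10 were higher with azacytidine, against 10.7% of all genes. All 10 fitted changes were above 0, against 51% of all genes, and in 4 genes, WHY1, WHY3, RECA1 and RECA2, treated and untreated replicates did not overlap in either genotype, against 5.11%. Leaving out wild-type replicate 3 gave 4 of the 10 called, WHY1 (log2 fold change 0.37, edgeR adjusted p = 0.0301), WHY3 (0.63, adjusted p = 0.00152), RECA2 (0.58, adjusted p = 0.0209) and POLIB (0.40, adjusted p = 0.0276), where 9.13% of all tested genes were.

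Averaged over both treatments, the memory line had more WHY2 transcript than wild type, called alone among the 10, where 2.91% of all genes were called. At an unadjusted p under 0.05, 5 of the 10 were higher in the memory line, against 9.01% of all genes, again WHY1, WHY2, WHY3, RECA3 and POLIB. The fitted change was above 0 for 9 of the 10, against 50.4% of all genes, and in WHY1, WHY2, WHY3 and RECA3, 4 genes, the genotypes did not overlap at either dose, against 4.72%. Leaving out wild-type replicate 3 gave 4 of the 10 called, WHY1 (0.39, edgeR adjusted p = 0.0328), WHY2 (0.46, adjusted p = 0.0180), WHY3 (0.45, adjusted p = 0.0183) and RECA3 (0.42, adjusted p = 0.0438), where 5.38% of all tested genes were.

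**Figure D1:**
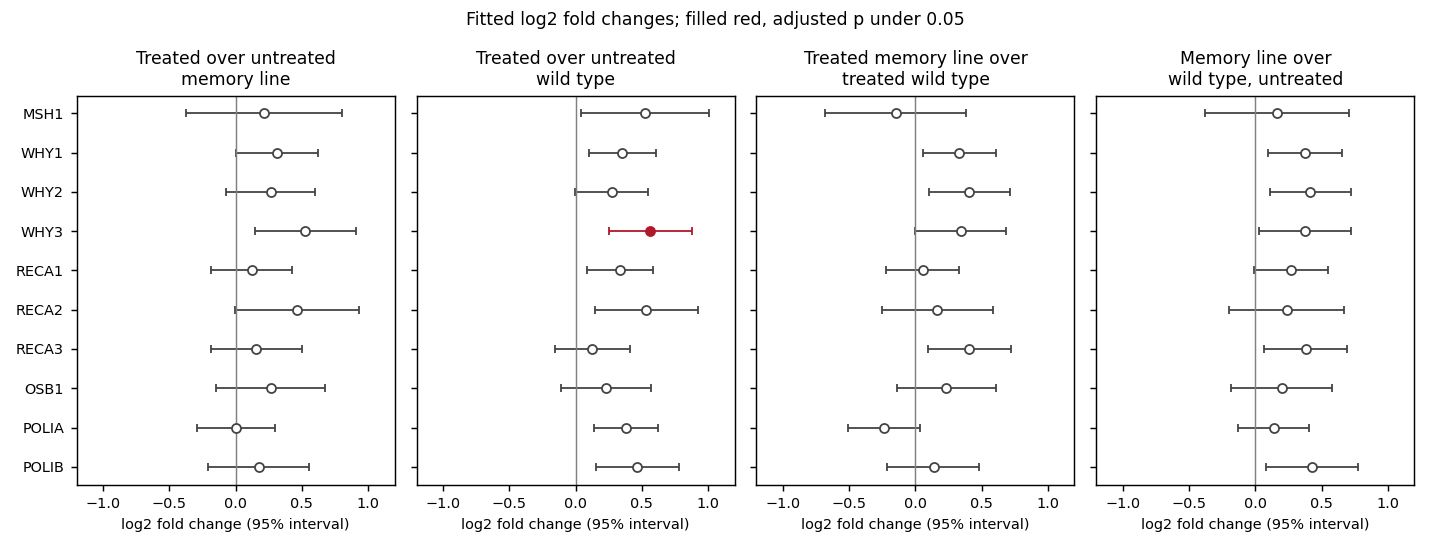
Fitted log2 fold changes of the 10 genes (points) with 95% intervals (bars) in 4 comparisons, named above the panels; the line marks 0 and a filled red point marks an edgeR adjusted p under 0.05. WHY3 in treated over untreated wild type is the filled point, at 0.56, and every point of treated over untreated wild type and of the untreated memory line over wild type lies right of 0.

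MSH1 was expressed in the memory line at levels within the range of wild type. It had 13.2 and 14.7 CPM in the treated memory line, 13.3 and 10.6 in the memory line, 12.4, 20.4 and 13.7 in treated wild type and 9.47, 8.67 and 14.05 in wild type. Treated wild-type replicate 2 was the highest of the 10 replicates, and the groups overlapped in each of the 4 pairwise comparisons. Means were 13.9 ± 1.05 CPM in the treated memory line and 11.98 ± 1.93 in the memory line (SD, n = 2 each), and 15.5 ± 4.30 in treated wild type and 10.7 ± 2.90 in wild type (SD, n = 3 each).

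No comparison called MSH1. The log2 fold change was 0.52 on azacytidine in wild type (SE 0.22, edgeR adjusted p = 0.175), with an interval of 0.04 to 1.01. It was 0.21 on azacytidine in the memory line (SE 0.27, adjusted p = 0.895). Between the genotypes it was 0.16 without azacytidine (SE 0.25, adjusted p = 0.820) and -0.15 on azacytidine (SE 0.25, adjusted p = 0.849). The interaction was -0.31 (SE 0.35, adjusted p = 0.834). Averaged over genotypes, the azacytidine response was 0.37 (SE 0.18, adjusted p = 0.252), and averaged over treatments the memory line differed from wild type by 0.01 (SE 0.18, adjusted p = 0.994), with an interval of -0.37 to 0.38.

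The MSH1 response of wild type moved with 2 single replicates. Without wild-type replicate 3 it was 0.78 (edgeR adjusted p = 0.0402), and without treated wild-type replicate 2 it was 0.28 (adjusted p = 0.564). The sign of the genotype difference also turned with single replicates. Without memory-line replicate 1 the untreated difference was -0.02, and without treated wild-type replicate 2 the difference on azacytidine was 0.10.

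The 3 genes whose centred log2 CPM followed that of MSH1 most closely over the 10 replicates, among 7478 named genes with a mean of at least 5 CPM, were HIRA, DRP5A and PHIP1. HIRA encodes a histone chaperone, and DRP5A and PHIP1 encode proteins linked to the forming cell plate. Their root mean square differences from MSH1 were 0.124, 0.132 and 0.133 on the log2 scale. HIRA had 17.4 and 18.7 CPM in the treated memory line, 15.7 and 13.5 in the memory line, 14.8, 20.2 and 17.3 in treated wild type and 12.6, 11.3 and 15.9 in wild type. As with MSH1, treated wild-type replicate 2 was its highest replicate and wild-type replicate 2 its lowest. HIRA was picked for following MSH1 over these same replicates, so this likeness is no separate finding. Of the other 9 members POLIB came closest, at 0.172 and position 27, then RECA2 at 0.230 and position 354. WHY2 was farthest, at 0.326 and position 2164.

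**Figure D2:**
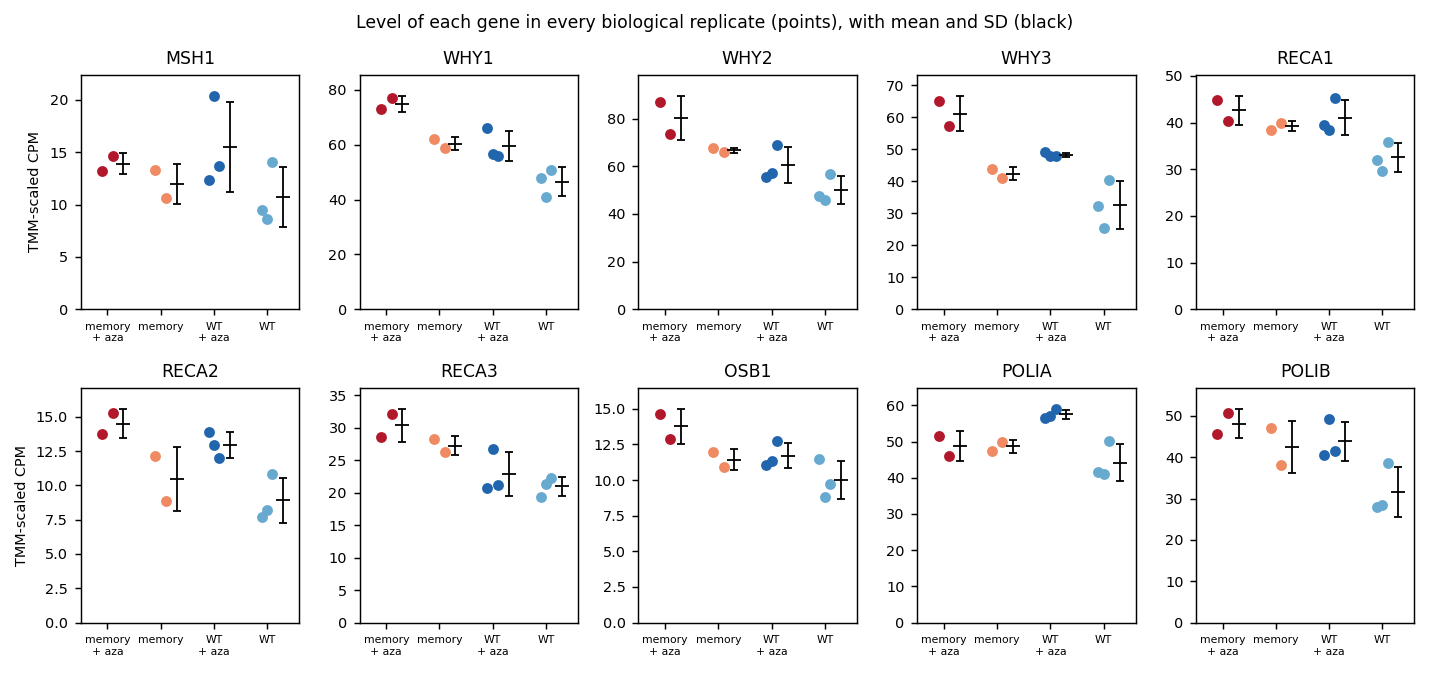
TMM-scaled CPM of each gene in every biological replicate (points), with group mean and SD (black), for the treated memory line, the memory line, treated wild type and wild type from left to right. WHY3 shows 3 treated wild-type points close together at 47.9 to 49.1 CPM above wild type, and MSH1 shows 1 treated wild-type point at 20.4 CPM above the rest.

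Among the Whirly genes, WHY3 had 65.1 and 57.3 CPM in the treated memory line, 43.8 and 41.1 in the memory line, 49.1, 47.96 and 47.9 in treated wild type and 32.2, 25.4 and 40.4 in wild type. Treated and untreated plants did not overlap in either genotype, and the memory line lay above wild type at both doses. The log2 fold change was 0.56 on azacytidine in wild type (SE 0.14, edgeR adjusted p = 0.0365) and 0.53 in the memory line (SE 0.18, adjusted p = 0.307). The difference between these was -0.04 (SE 0.23), with an interval of -0.53 to 0.45. Averaged over genotypes the response was 0.55 (SE 0.11, adjusted p = 0.0154), a 1.46-fold rise, with 5 of 5 treated replicates above every untreated replicate of their genotype. WHY3 differed between the memory line and wild type by 0.38 without azacytidine (SE 0.16, adjusted p = 0.270) and 0.36 averaged over treatments (SE 0.11, adjusted p = 0.107).

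The call in wild type needs nearly all of its replicates. Without wild-type replicate 1, WHY3 changed by 0.55 (edgeR adjusted p = 0.116), and without wild-type replicate 2 by 0.41 (adjusted p = 0.142). Without treated wild-type replicates 1, 2 and 3 in turn it changed by 0.55 (adjusted p = 0.120), 0.57 (adjusted p = 0.116) and 0.57 (adjusted p = 0.0784). Without wild-type replicate 3 it was 0.75 (adjusted p = 0.00378). The averaged response was called in 16 of 18 alternatives. It missed the threshold without memory-line replicate 2 (0.52, adjusted p = 0.0537) and without treated memory-line replicate 1 (0.50, adjusted p = 0.0715).

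WHY2, the mitochondrial Whirly gene, had 86.8 and 73.7 CPM in the treated memory line, 67.5 and 66.1 in the memory line, 55.4, 57.0 and 69.1 in treated wild type and 47.6, 45.9 and 56.8 in wild type. The memory line lay above wild type at each dose without overlap. The log2 fold change of the memory line over wild type was 0.41 averaged over treatments (SE 0.10, edgeR adjusted p = 0.0450), or 1.33-fold. Apart, it was 0.41 without azacytidine (SE 0.14, adjusted p = 0.173) and 0.41 on azacytidine (SE 0.14, adjusted p = 0.282). The averaged response of WHY2 to azacytidine was 0.27 (SE 0.10, adjusted p = 0.145).

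The averaged WHY2 call was close to the threshold. It was kept without wild-type replicate 3 (0.46, edgeR adjusted p = 0.0180) and without treated wild-type replicate 3 (0.46, adjusted p = 0.0409). It was lost without wild-type replicate 1 (0.39, adjusted p = 0.0905) or 2 (0.38, adjusted p = 0.109), and without treated wild-type replicate 1 (0.38, adjusted p = 0.121) or 2 (0.39, adjusted p = 0.107). It was also lost without memory-line replicate 1 (0.40, adjusted p = 0.0784) or 2 (0.42, adjusted p = 0.0937), and without treated memory-line replicate 1 (0.35, adjusted p = 0.117) or 2 (0.46, adjusted p = 0.0968). The log2 fold change was above 0 in all 18 alternatives, from 0.35 to 0.51.

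WHY1, the second plastid Whirly gene, had 72.9 and 77.0 CPM in the treated memory line, 62.0 and 58.7 in the memory line, 66.0, 56.7 and 56.0 in treated wild type and 47.9, 40.9 and 50.9 in wild type. The groups did not overlap in any of the 4 pairwise comparisons, yet edgeR called none. The averaged response to azacytidine was 0.33 on the log2 scale (SE 0.09, adjusted p = 0.0590), and the averaged difference of the memory line from wild type was 0.35 (SE 0.09, adjusted p = 0.0570). DESeq2 called both, at adjusted p = 0.0357 and 0.0269. Apart, the edgeR response of WHY1 was 0.35 in wild type (SE 0.12, adjusted p = 0.0886) and 0.31 in the memory line (SE 0.14, adjusted p = 0.548), and the memory line exceeded wild type by 0.37 without azacytidine (SE 0.13, adjusted p = 0.180).

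**Figure D3:**
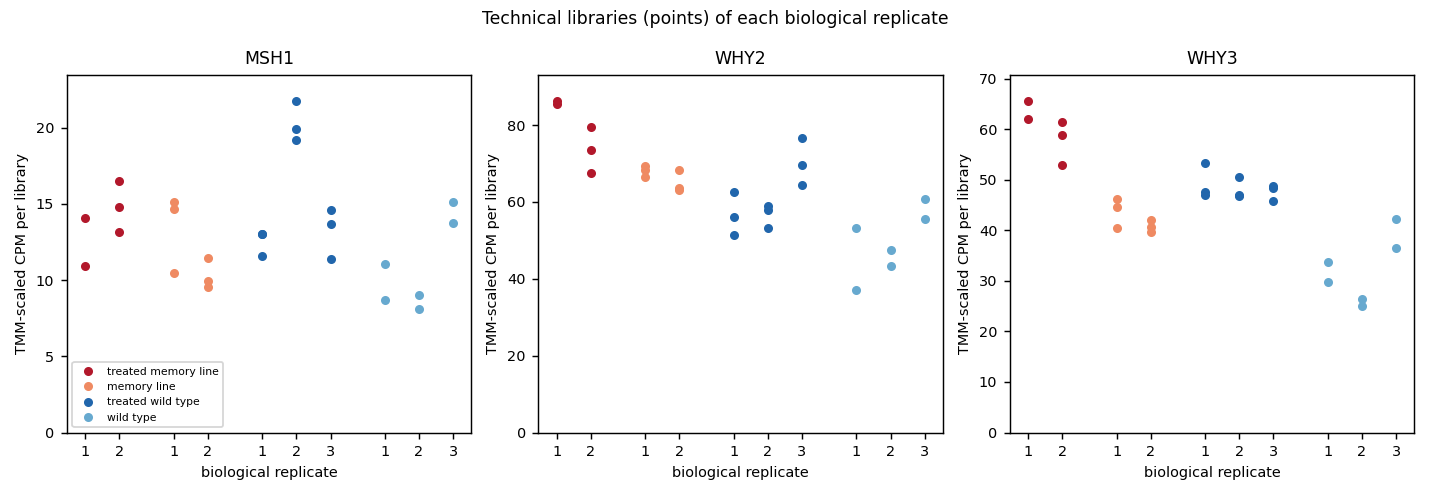
TMM-scaled CPM of MSH1, WHY2 and WHY3 in each of the 26 technical libraries (points), stacked by biological replicate, for the treated memory line, the memory line, treated wild type and wild type from left to right. The 3 libraries of treated wild-type replicate 2 all sit at 19.2 to 21.7 CPM for MSH1, above those of every other replicate.

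Of the recombinase genes, RECA3, of mitochondria, had 28.6 and 32.1 CPM in the treated memory line, 28.3 and 26.2 in the memory line, 20.7, 26.7 and 21.2 in treated wild type and 19.3, 21.4 and 22.2 in wild type. The memory line lay above wild type at each dose without overlap, while the treated and untreated replicates of wild type overlapped. The averaged difference of the memory line from wild type was 0.39 on the log2 scale (SE 0.10, edgeR adjusted p = 0.0577), which DESeq2 called at adjusted p = 0.0368. Without azacytidine the difference was 0.38 (SE 0.15, adjusted p = 0.219). The averaged response to azacytidine was 0.14 (SE 0.10, adjusted p = 0.471).

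RECA2, targeted to both organelles, had 13.8 and 15.2 CPM in the treated memory line, 12.1 and 8.83 in the memory line, 13.9, 12.9 and 12.0 in treated wild type and 7.73, 8.19 and 10.8 in wild type. Treated replicates lay above untreated ones in both genotypes, and the genotypes overlapped at both doses. The averaged response to azacytidine was 0.50 on the log2 scale (SE 0.14, edgeR adjusted p = 0.0626), which DESeq2 called at adjusted p = 0.0393. In wild type alone it was 0.54 (SE 0.18, edgeR adjusted p = 0.0922).

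RECA1, of plastids, had 44.8 and 40.4 CPM in the treated memory line, 38.4 and 39.9 in the memory line, 39.4, 38.4 and 45.3 in treated wild type and 32.1, 29.6 and 35.9 in wild type. Untreated wild type was the low group, and the other 3 groups lay between 38.4 and 45.3 CPM. The response of wild type to azacytidine was 0.33 on the log2 scale (SE 0.12, edgeR adjusted p = 0.101), and the averaged response was 0.23 (SE 0.09, adjusted p = 0.171).

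OSB1 was the member with the smallest counts beside MSH1 and RECA2, at 112 to 177 per replicate. It had 14.6 and 12.9 CPM in the treated memory line, 11.98 and 10.9 in the memory line, 11.1, 11.3 and 12.7 in treated wild type and 11.5, 8.82 and 9.71 in wild type. No comparison reached an unadjusted p of 0.05 for it.

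Of the organelle polymerase genes, POLIA had 51.6 and 45.9 CPM in the treated memory line, 47.3 and 49.99 in the memory line, 56.4, 57.1 and 58.9 in treated wild type and 41.5, 40.96 and 50.01 in wild type. Treated wild type was the high group for POLIA and overlapped with no other. The response of POLIA to azacytidine was 0.38 in wild type (SE 0.11, edgeR adjusted p = 0.0612) and 0.00 in the memory line (SE 0.14, adjusted p = 0.997), and the difference between these, -0.38 (SE 0.18), was not called (adjusted p = 0.587). DESeq2 called the wild-type response at adjusted p = 0.0446. Averaged over genotypes the response of POLIA was 0.19 (SE 0.09, edgeR adjusted p = 0.233).

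POLIB had 45.7 and 50.6 CPM in the treated memory line, 47.1 and 38.1 in the memory line, 40.6, 49.4 and 41.6 in treated wild type and 28.0, 28.4 and 38.7 in wild type. Untreated wild type was the low group, with replicate 3 reaching the lower memory-line replicate. The log2 fold change was 0.47 on azacytidine in wild type (SE 0.15, edgeR adjusted p = 0.0752) and 0.43 for the untreated memory line over wild type (SE 0.16, adjusted p = 0.214). The averaged response to azacytidine was 0.32 (SE 0.12, adjusted p = 0.131), and the averaged difference of the memory line from wild type was 0.28 (SE 0.12, adjusted p = 0.208).

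Per kilobase of exon, the ratio of POLIA to POLIB was 1.12 and 0.898 in the treated memory line and 0.996 and 1.30 in the memory line. It was 1.38, 1.15 and 1.40 in treated wild type and 1.47, 1.43 and 1.28 in wild type. The treated genotypes did not overlap in this ratio, with the memory line lower, and the untreated ones did. The ratio was not tested.

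**Figure D4:**
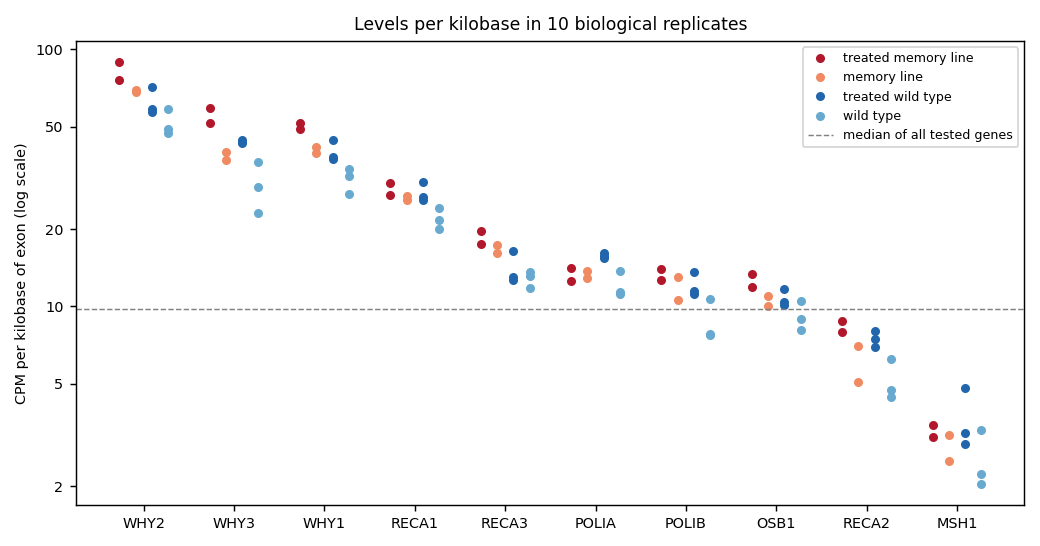
Level of each gene per kilobase of exon, in CPM per kilobase on a log scale, in the 10 biological replicates (points, by group); the dashed line is the median of all tested genes. WHY2 is highest in every replicate and MSH1 lowest, at 3.08 on average against the median of 9.745.

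Levels of different genes were set side by side per kilobase of exon. The mean over the 10 replicates was 64.4 CPM per kilobase for WHY2, 40.8 for WHY3, 39.4 for WHY1, 25.9 for RECA1 and 15.1 for RECA3. It was 13.7 for POLIA, 11.3 for POLIB, 10.6 for OSB1, 6.67 for RECA2 and 3.08 for MSH1, against a median of 9.745 over 22025 tested genes with a length. MSH1 ranged from 2.05 to 4.82 CPM per kilobase over the replicates and stood at percentile 22 of tested genes, while WHY2 ranged from 47.2 to 89.3 and stood at percentile 91.3.

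Neighbours in this order did not all differ beyond their spread. WHY3 lay above WHY1 in 6 of 10 replicates, RECA3 above POLIA in 7, POLIA above POLIB in 8 and POLIB above OSB1 in 6. The other 5 neighbouring pairs kept their order in 10 of 10 replicates, down to RECA2 over MSH1, which differed 2.20-fold on average. With coding length in place of exon length WHY1 moved above WHY3 and OSB1 above POLIB.

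The technical libraries show how far each value can be read. The SD of log2 CPM between libraries of the same RNA was 0.180 for MSH1, against 0.325 between replicates of a group. It was 0.088 against 0.202 for WHY3 and 0.104 against 0.202 for POLIB. In 4 of the 10 genes the technical SD was the larger one, at 0.295 against 0.212 for RECA2, 0.318 against 0.142 for OSB1, 0.152 against 0.144 for RECA3 and 0.125 against 0.109 for POLIA. The 2 SDs do not compare like with like. The technical SD is between single libraries, with 16 to 108 counts of RECA2 and 17 to 123 of OSB1. The other is between replicates summed over 2 or 3 libraries, with 93 to 209 and 112 to 177 counts.

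Markers of dividing cells moved beside these genes. The 6 marker genes, the mitotic cyclins CYCB1;1 and CYCB1;2, the cell-plate syntaxin KN and the replication genes MCM2, PCNA1 and PCNA2, summed to 189 to 220 CPM in the treated memory line and 156 to 185 in the memory line. They summed to 188 to 232 CPM in treated wild type and 127 to 187 in wild type, where replicate 3 was highest for 6 of 6. Azacytidine raised CYCB1;2 (log2 fold change 0.60, SE 0.16, edgeR adjusted p = 0.0356) and KN (0.51, SE 0.13, adjusted p = 0.0312) in wild type, 2 of 6, where 3.02% of all tested genes rose. With wild-type replicate 3 left out it raised 5 of 6, where 5.86% of all tested genes rose and 11.4% were called in either direction. These 2 calls were lost without wild-type replicate 1 (adjusted p = 0.141 for CYCB1;2 and 0.131 for KN) or 2 (0.126 and 0.126), and without treated wild-type replicate 1 (0.139 and 0.124) or 2 (0.142 and 0.131). Averaged over genotypes azacytidine raised CYCB1;1 (0.73, SE 0.14, edgeR adjusted p = 0.0111), where 2.03% of all tested genes rose. That call was lost without treated memory-line replicate 2 (0.65). In the memory line CYCB1;1 changed by 0.91 on azacytidine and was not called by edgeR. It was called there without wild-type replicate 3, by DESeq2 and by limma voom on the 26 libraries.

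Between the genotypes 0 of the 6 markers were called by edgeR, and 0 passed an unadjusted p of 0.05. Of all tested genes, 2.91% were called and 18.1% passed in the averaged comparison. The averaged log2 fold changes of the 6 markers, memory line over wild type, ran from -0.03 to 0.25 with a median of 0.04. The same median over the 10 genes was 0.25. Among 4 root markers CASP1, PER64 and TIP2;3 fell in treated wild type, where 3.37% of all tested genes fell, and PYK10 was not called. Means in treated and untreated wild type were 8.34 and 16.7 CPM for CASP1, 4.69 and 10.45 for PER64 and 1.85 and 10.07 for TIP2;3. TIP2;3 varied in untreated wild type, at 15.04, 11.27 and 3.898 CPM. On azacytidine in the memory line edgeR called 0 of the 4, where 0.74% of all tested genes were called. All 4 fitted changes there were below 0, where 52% of all tested genes were above 0. The summed level of all 4 was 1061 to 1600 CPM in treated wild type and 1167 to 1255 in wild type. Most of that sum was PYK10, which averaged 1333 and 1185 CPM, so the sum does not show the 3 that fell. The part of the cell makeup in the changes of the 10 genes was not tested.

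A wider list of 23 other genes, listed for roles in organelle DNA and all of them tested, gives the surroundings of the 10. Whether each acts on organelle DNA alone was not tested. Exons of genes on the opposite strand overlap 51.5% of the exon bases of OSB3, 32.8% of ODB1 and 12.9% of TOPA. For GYRA, OSB2 and TWINKLE the overlap is 0%. On azacytidine in wild type 2 rose, GYRA and OSB2, and 0 fell, where 3.02% of all tested genes rose and 3.37% fell. GYRA, the A subunit of DNA gyrase, averaged 106 ± 3.63 CPM in treated wild type and 64.7 ± 13.1 in wild type (SD, n = 3 each), a log2 fold change of 0.71 (SE 0.16, edgeR adjusted p = 0.0188). OSB2, a plastid single-strand binding protein related to OSB1, averaged 49.3 ± 2.23 CPM in treated wild type and 34.8 ± 2.70 in wild type (SD, n = 3 each), a log2 fold change of 0.51 (SE 0.11, adjusted p = 0.0184). Both calls were lost without wild-type replicate 1 (adjusted p = 0.0839 for GYRA and 0.0682 for OSB2) or 2 (0.0993 and 0.0912) and without treated wild-type replicate 1 (0.0714 and 0.0910) or 2 (0.0775 and 0.0627). With wild-type replicate 3 left out, 8 of the 23 rose and 1 fell, where 5.86% of all tested genes rose and 11.4% were called in either direction.

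By role, 7 of 7 genes of replication and topology had a fitted change above 0 in that comparison, as had 50.2% of all tested genes. The median of those 7 was 0.54, against 0.00 over all tested genes. The 7 genes of recombination and single-strand binding had a median of 0.19, the 8 of base excision repair and ligation 0.10, and the nuclease gene DPD1 was at 0.26. In the memory line edgeR called 0 of the 23 on azacytidine, and 0 passed an unadjusted p of 0.05. Of all tested genes, 0.74% were called there and 8.98% passed.

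Averaged over genotypes, azacytidine raised GYRA (0.55, SE 0.12, edgeR adjusted p = 0.0222), 1 of the 23, where 2.03% of all tested genes rose. That call was lost without wild-type replicate 1 or 2, treated wild-type replicate 1 or 2, memory-line replicate 2 or treated memory-line replicate 1 or 2, at an adjusted p of 0.0526 to 0.0867. When wild-type replicate 3 was left out, 7 of the 23 rose, where 4.69% of all tested genes rose and 9.13% were called in either direction.

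Averaged over treatments, 1 of the 23 was called in the memory line, where 2.91% of all tested genes were. That gene was TWINKLE, the helicase and primase of both organelles. It had 96.2 and 103.9 CPM in the treated memory line, 94.0 and 66.5 in the memory line, 64.2, 71.0 and 62.0 in treated wild type and 40.4, 41.6 and 61.9 in wild type. The genotypes did not overlap at either dose, though memory-line replicate 2 came close to wild-type replicate 3. The log2 fold change of the memory line over wild type was 0.68 (SE 0.13, edgeR adjusted p = 0.0206), or 1.60-fold. It missed the threshold without wild-type replicate 2 (0.63, adjusted p = 0.0591), without treated wild-type replicate 1 (0.67, adjusted p = 0.0596) or 3 (0.65, adjusted p = 0.0501), and without treated memory-line replicate 2 (0.64, adjusted p = 0.105). In the fit without wild-type replicate 3, 4 of the 23 were called, each upward, where 2.5% of all tested genes rose and 5.38% were called in either direction. Taken at each dose, edgeR called 0 of the 23 between the memory line and wild type. Of all genes it called 1.17% without azacytidine and 0.0454% on it. At an unadjusted p under 0.05, 5 were higher in the memory line without azacytidine and 5 on it. The shares of all genes were 7.78% and 6.32%. DESeq2 called TWINKLE without azacytidine and 0 on it, and without wild-type replicate 3 edgeR called 3 of the 23 without azacytidine, against 4.06% of all genes. The median over the 23 genes, averaged over treatments, was 0.17, beside 0.25 over the 10 genes and 0.00 over all tested genes.

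**Figure D5:**
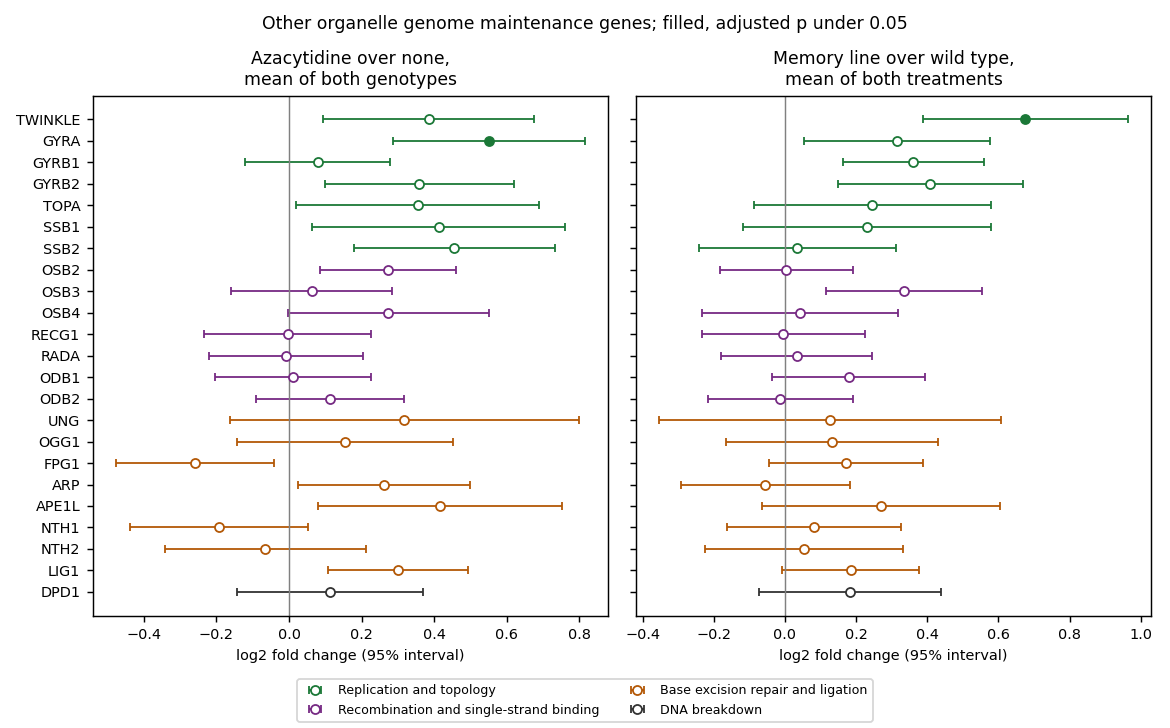
Fitted log2 fold changes of the 23 other organelle DNA genes (points) with 95% intervals (bars), coloured by role, for azacytidine over none averaged over genotypes (left) and the memory line over wild type averaged over treatments (right). The filled points, with an edgeR adjusted p under 0.05, are GYRA at 0.55 on the left and TWINKLE at 0.68 on the right.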

How the data were processed

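RNA of 26 libraries was sequenced in 100-base reads with an unstranded kit, per the labels' protocols. The authors deposited raw read counts per gene and library. The submitters' processing notes name the TAIR10 build and DESeq2; which aligner and which counter were used is not given in the sources used here. Besides 33977 gene identifiers each file holds 5 summary entries, which were left out. Reads that the counter credited to no gene made up 48.3% to 49.3% in each replicate. Whether counting took account of the strand is unknown. This share therefore does not show how many reads lay outside genes. Symbols, exon lengths and sequences came from RefSeq TAIR10.1.

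Technical libraries were summed per biological replicate (10 replicates, 11412839 to 13544859 gene counts; 2224933 to 9335587 per library). Genes were filtered with filterByExpr of edgeR 4.0.16 (minimum count 10, minimum total 15) with TMM scaling. A robust quasi-likelihood fit over all 4 groups was made in R 4.3.3, with no covariate and 6 residual degrees of freedom. The biological coefficient of variation common to all genes was 0.166. P-values were adjusted by Benjamini-Hochberg over all 22031 tested genes, with a threshold of 0.05. Intervals are 95% intervals, and CPM counts reads per 1e+06. Averages over genotypes or treatments weight both equally. Alternatives were DESeq2 1.42.0, RLE factors, other filters, limma 3.58.1 with voom, the first technical library alone, all 26 libraries with the replicate as random effect, the compared groups alone, a replicate block and leaving out each replicate. The procedure was also run on simulated counts in which all genes shared the same spread and no replicate stood apart. That setting is simpler than these data, so it does not show how stable the calls are.

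The 10 genes, the wider lists, tests and alternatives were chosen with earlier results of these data known. Log2 fold changes are printed for MSH1 in every comparison and for members with an unadjusted p under 0.05; a few other values stand beside them for contrast, chosen after they were seen. From the wider lists at most 6 called genes per comparison are named. The genes most like MSH1 are the 3 with the smallest root mean square difference in centred log2 CPM, computed without a prior count. The principal component analysis and the correlations of replicate deviations used log2 CPM with a prior count of 2.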

Additional observations from a re-analysis of the deposited data

How the results depend on the processing

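DESeq2 called 2 of the 10 genes in the wild-type response to azacytidine, 3 in the averaged response and 3 in the averaged memory-line difference, and 6, 2 and 2 of the 23 other organelle genes, with 1 in the untreated memory line; over all tested genes it called 2038, 1651, 1286 and 904 in these 4 comparisons, against 1408, 992, 641 and 258. Limma voom on all 26 libraries, which counts technical libraries in its spread, called 6 of the 10 genes in the wild-type response, 1 in the memory-line response, 3 in the untreated and 1 in the treated memory-line difference, 4 in the averaged response and 5 in the averaged memory-line difference. Of the 23 it called 8, 0, 5, 2, 8 and 5 in the same comparisons. Over all tested genes it called 3603, 644, 1660, 949, 2790 and 2261 there, against 1408, 163, 258, 10, 992 and 641. Limma voom on the replicates and the first technical library alone each called 0 of the 10 genes in the averaged memory-line difference, and that library alone called 0 of the 23 in the averaged response. With the compared groups alone in the fit, 5 of the 23 were called in the wild-type response and 1, TWINKLE, between the treated genotypes. The causes of these moves were not tested.

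Leaving out 1 replicate in turn gave 0 to 7 of the 10 genes called in the wild-type response, 0 to 2 in the untreated memory line, 0 to 4 in the averaged response and 0 to 4 in the averaged memory-line difference. For the 23 genes the ranges were 0 to 9, 0 to 3, 0 to 7 and 0 to 4. Where this left a group with 1 replicate, the fit assumed that it varied like the other groups. The highest counts came without wild-type replicate 3. Over all genes, the wild-type response gave 432 to 3603 calls over the alternatives against 1408, and the untreated memory line 32 to 1660 against 258.

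The averaged MSH1 difference of the memory line, 0.01, turned negative in 8 alternatives. A stricter filter gave -0.000304, using only the first library of each replicate gave -0.00609, and the values ran from -0.0913 to 0.13 when single replicates were left out. The untreated MSH1 difference was -0.0239 without memory-line replicate 1 and 0.42 without wild-type replicate 3, and the difference on azacytidine was 0.10 without treated wild-type replicate 2 and -0.29 without treated wild-type replicate 1.

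Whether equal replicate numbers pair the samples could not be settled. Same-numbered deviations of wild type and treated wild type correlated at 0.204, -0.007 and 0.036, and those of the treated genotypes at 0.247 and 0.218. Those of the memory line with and without azacytidine correlated at -0.201 and -0.201, and the other pairs at -0.021 to 0.249. In a group of 2 the deviations mirror each other, so the 2 memory-line values are the same value, and so few values cannot decide on a pairing. A fit with the replicate number as a block called WHY3 in the wild-type response (0.59, edgeR adjusted p = 0.0303) and in the averaged response, and WHY2 in the averaged memory-line difference (0.51, adjusted p = 0.0128). It changed no call of the 10 genes. Over all tested genes the block fit called 685 in the untreated, 123 in the treated and 984 in the averaged memory-line difference, against 258, 10 and 641. In the wild-type response and the averaged response to azacytidine it called 1323 and 1051, against 1408 and 992. Under the block 3 of the 23 other genes were called in the wild-type response, GYRB2 beside GYRA and OSB2, 1 in the untreated memory line, GYRB2, and 2 in the averaged memory-line difference, TWINKLE and GYRB2. CYCB1;2 and KN missed the threshold in the wild-type response (adjusted p = 0.0516 and 0.0504).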
